A study of Mus musculus with 4 samples.

Results

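Genes of fatty acid synthesis and oxidation, namely Acly, Acaca, Fasn, Scd1, Scd2, Acss2, Srebf1, Cpt1a, Acadl and Angptl4, were examined in IMS32 cells, a spontaneously immortalized line of adult mouse Schwann cells. They were chosen by the gene name that the array design gives each probe, and all 10 were found among 31093 names on the array. Cells had been kept for 1 h in medium with serum and 5 or 15 mM glucose, with 1 mM pyruvate or with 0 mM pyruvate, which gives [Glc 5 mM/Pyr (+)] and [Glc 5 mM/Pyr (−)] at the lower glucose concentration and, at the higher one, [Glc 15 mM/Pyr (+)] and [Glc 15 mM/Pyr (−)]. RNA of each group was labelled with Cy3 and hybridized to 1 one-colour array, and the 4 arrays lay on 1 slide. All groups share the cell line and the serum. With 1 array per group no difference has a replicate check, precision is limited by the number of arrays, and fewer cells of a type and less RNA per cell cannot be told apart.

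Pyruvate made in glycolysis or taken from the medium enters mitochondria, and part of its carbon leaves them again as citrate. Acly cleaves that citrate to cytosolic acetyl-CoA, Acss2 makes acetyl-CoA from acetate, Acaca carboxylates acetyl-CoA to malonyl-CoA, Fasn builds palmitate from it, and Scd1 and Scd2 put the first double bond into long chains. Srebf1 encodes the transcription factor that drives most of these enzymes. Malonyl-CoA blocks Cpt1a, the enzyme that lets long chains into mitochondria for oxidation, where Acadl takes the first step for part of them. Angptl4 belongs to neither route: it is a secreted inhibitor of lipoprotein lipase and a known target of PPAR transcription factors. Myelinating Schwann cells need fatty acid synthesis for their membrane.

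The 10 genes were measured by 16 probes, which are 60 bases long, and all 16 were well above background on all 4 arrays. Values are processed spot intensities, and differences are in log2 intensity relative to the 75th percentile of each array. Positions are those of the array files in mm9. No mm9 gene models were used here, so exon, intron or UTR was not assigned. Acaca has 4 probes, and their sequences are shown because they decide how its values can be read. For the probe pair with the strongest signal, the last 30 bases are given, and capitals mark the bases outside a run of 55 bases that both probes contain.

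Acaca (1), chr11:84215093-84215152: tgttgaaataaacctccacatttgtaGAAG
Acaca (3), chr12:10166955-10167014: gttgaaataaacctccacatttgtaAAAAA

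These probes therefore report on 1 stretch of transcript and are not independent measurements. Among the 120 pairs of member probes, the next longest shared run was 8 bases. The probes of the paralogs Scd1 and Scd2 shared at most 6. The other Acaca probes lie elsewhere in the transcript, and their first 30 bases are shown for identity.

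Acaca (2), chr12:10164855-10164914: tgtgatagaggagaacatcaaatacatcag
Acaca (4), chr11:84009021-84009080: tcataattgggtctgtgtctgaagacaact

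The array design places Acaca (2) and Acaca (3) on chromosome 12, although it places the other Acaca probes, and RefSeq the Acaca promoter, on chromosome 11. Whether a copy there adds to the signal was not tested.

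Averaged over its probes, Acaca had the most negative pyruvate difference of the 10 members in high glucose. The intensity of Acaca (1) was 10318 with and 9727 without pyruvate at 5 mM glucose, and 9192 with and 7478 without it at 15 mM glucose. Acaca (3) gave 10860, 9937, 9312 and 7394 in the same order. On both, the array without pyruvate at 15 mM glucose was the lowest of the 4. The difference Pyr (−) minus Pyr (+) was -0.05 for Acaca (1) and -0.09 for Acaca (3) at 5 mM glucose. At 15 mM glucose it was -0.33 and -0.36, which is 0.797 and 0.777 times the level with pyruvate.

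Acaca (4), at the start of the transcript, was dim, with 141, 142, 149 and 98.0. It too was lowest in [Glc 15 mM/Pyr (−)], with a difference of -0.63 at 15 mM glucose against 0.05 at 5 mM glucose. Acaca (2) was dim as well, with 44.9, 40.8, 39.2 and 37.2, and differed by -0.10 and -0.11. So the mean over the 4 probes at 15 mM glucose was -0.36, while its probes ranged from -0.63 to -0.11.

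The error within an array was judged on probes printed several times, whose median SD between spots was 0.07 to 0.08. For 1 probe compared between 2 arrays this gives a spread of 0.11, which leaves out the variation between cultures. A wider yardstick is the central 95% of all 9203 probes in the same tertile of signal, that is, one of 3 equal groups of probes ordered by brightness. In the brightest tertile this ran from -0.34 to 0.29 for pyruvate removal at 15 mM glucose. Acaca (3) lay just below that range and Acaca (1) just inside it. Acaca (4) belongs to the dimmest tertile, where the range was -0.94 to 0.95, and lay well inside.

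**Figure D1:**
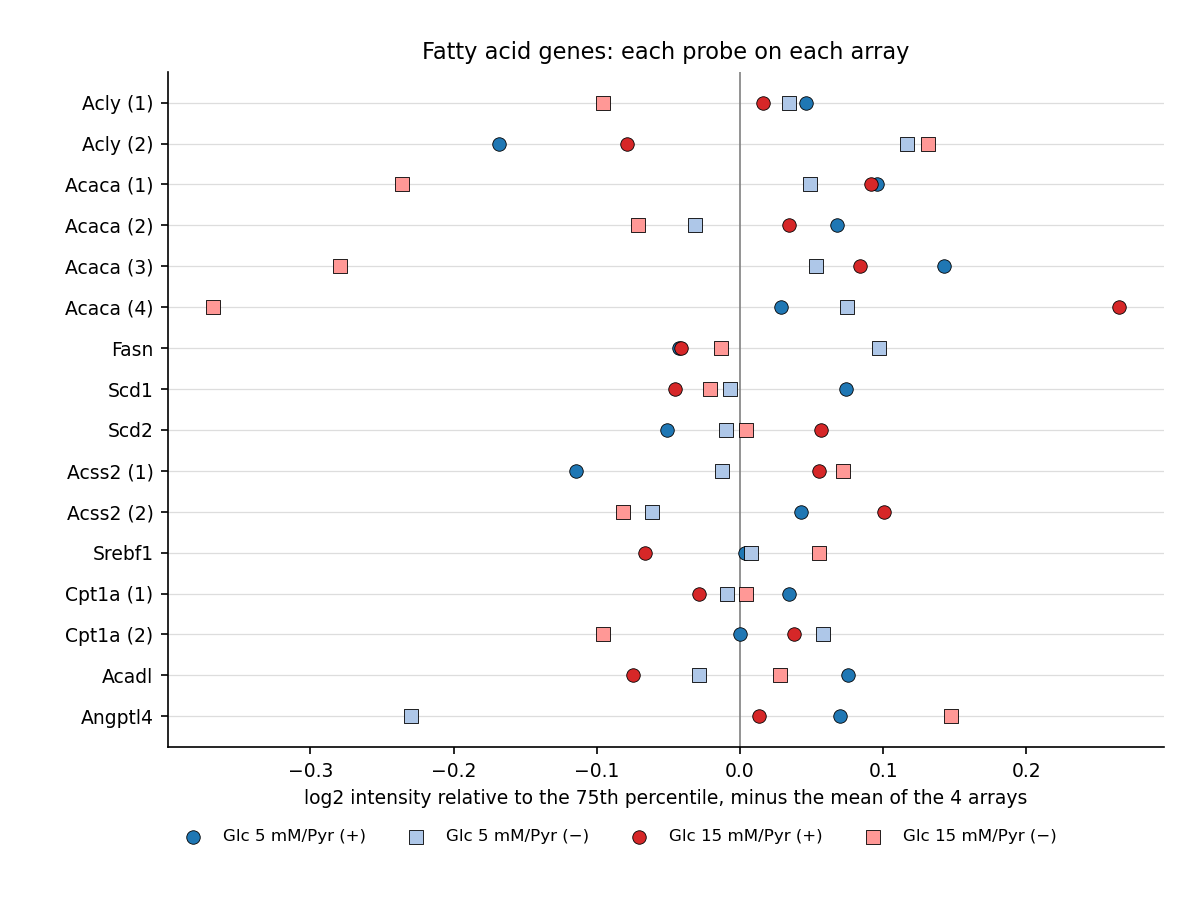
Log2 intensity of each of the 16 probes on each of the 4 arrays, relative to the 75th percentile of the array and centred on the mean of the 4 arrays of that probe. Points stand for single arrays, circles with and squares without pyruvate. The light red squares of [Glc 15 mM/Pyr (−)] lie lowest on all 4 Acaca probes, and the light blue square of [Glc 5 mM/Pyr (−)] lies lowest for Angptl4.

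For the other enzymes of synthesis, the pyruvate differences ran from -0.18 to 0.28. Acly (1), chr11:100337674-100337733, was bright, with 24662 with and 23819 without pyruvate at 5 mM glucose, and 21573 with and 20390 without it at 15 mM glucose. Its pyruvate differences were -0.01 at 5 mM and -0.11 at 15 mM glucose. Acly (2), chr11:100365518-100365577, was dim, with 138, 164, 131 and 155. Both arrays without pyruvate were higher on it than both arrays with pyruvate, and the differences were 0.28 and 0.21. The probes of Acly thus disagreed in sign. The second falls to 0.05 at 15 mM glucose under another background correction, normexp. That correction adds 50 to each intensity, which by itself shrinks the log2 differences of dim probes. Its share of this fall was not tested.

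Fasn, chr11:120667666-120667725, had 614, 659, 550 and 572 in the same order of groups, with pyruvate differences of 0.14 and 0.03. For the desaturases, Scd2, chr19:44381024-44381083, had 70637 with and 70762 without pyruvate at 5 mM glucose, and 67982 with and 66966 without it at 15 mM glucose. Its differences were 0.04 and -0.05. Scd2 was not saturated on any array. Scd1, chr19:44469387-44469446, had 5188, 4776, 4266 and 4432, with differences of -0.08 and 0.02. All of these lie within the spread of 0.11 except Fasn at 5 mM glucose.

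Acss2 was measured by a probe with 1020, 1067, 1025 and 1060 and by a dimmer probe with 137, 124, 128 and 115. The first, Acss2 (1), chr2:155388416-155388475, differed by 0.10 at 5 mM and 0.02 at 15 mM glucose. The second, Acss2 (2), chr2:155387492-155387551, differed by -0.10 and -0.18. Their signs were opposite at both glucose concentrations.

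Srebf1, chr11:60012664-60012723, had 385, 376, 328 and 364. Its pyruvate difference was 0.00 at 5 mM and 0.12 at 15 mM glucose. The lowest and the highest array of Srebf1 on this relative scale were both at 15 mM glucose.

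A sequence feature that did not enter the choice of genes was the polyadenylation hexamer AATAAA, searched on the probe strand. It was in 4 of the 16 member probes, against 12.6% of the 39429 probes of the array. The matches were Acaca (1) and Acaca (3), whose overlap holds it, and the probes below, where capitals mark it.

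Acly (1): tcatgtttgctttaAATAAActagatagta
Acss2 (1): cactgttataggAATAAAgtttatgagctc

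These are the probes of Acly and Acss2 whose partners, Acly (2) and Acss2 (2), differed from them in sign. Their own pyruvate differences at 5 mM glucose ran from -0.09 to 0.10 with those of Acaca.

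On the oxidation side, Cpt1a (1), chr19:3385374-3385433, was printed 10 times on each array and is the best measured member. It begins as follows.

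Cpt1a (1): tcttaggactacttgctaacctctgttact

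At 5 mM glucose its spots ran from 4019 to 4725 with a median of 4457 with pyruvate, and from 3827 to 4493 with a median of 4137 without. At 15 mM glucose they ran from 3362 to 3998 with a median of 3820 with pyruvate, and from 3656 to 4245 with a median of 3951 without. Relative to the 75th percentile, the mean log2 level was 1.30 ± 0.08, 1.26 ± 0.08, 1.24 ± 0.08 and 1.27 ± 0.08 (SD over 10 spots of 1 array). On this scale the spots of all 4 arrays overlapped, while the intensities before scaling did not overlap between the 2 arrays with pyruvate.

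Because the spots lie at the same places on each array, they can also be set against each other spot by spot. The pyruvate difference was then -0.04 ± 0.02 (SD over 10 spots) at 5 mM glucose, lower in 9 spots, and 0.03 ± 0.03 at 15 mM glucose, higher in 8 spots. The glucose difference was -0.06 ± 0.03 with pyruvate, lower in all 10 spots, and 0.01 ± 0.02 without. Spots of 1 array are not replicates of a condition, so these errors describe the array and not the cultures. Cpt1a (2), chr19:3384060-3384119, had 330, 334, 303 and 282 and differed by 0.06 and -0.13. The probes of Cpt1a thus disagreed in sign at both glucose concentrations.

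**Figure D2:**
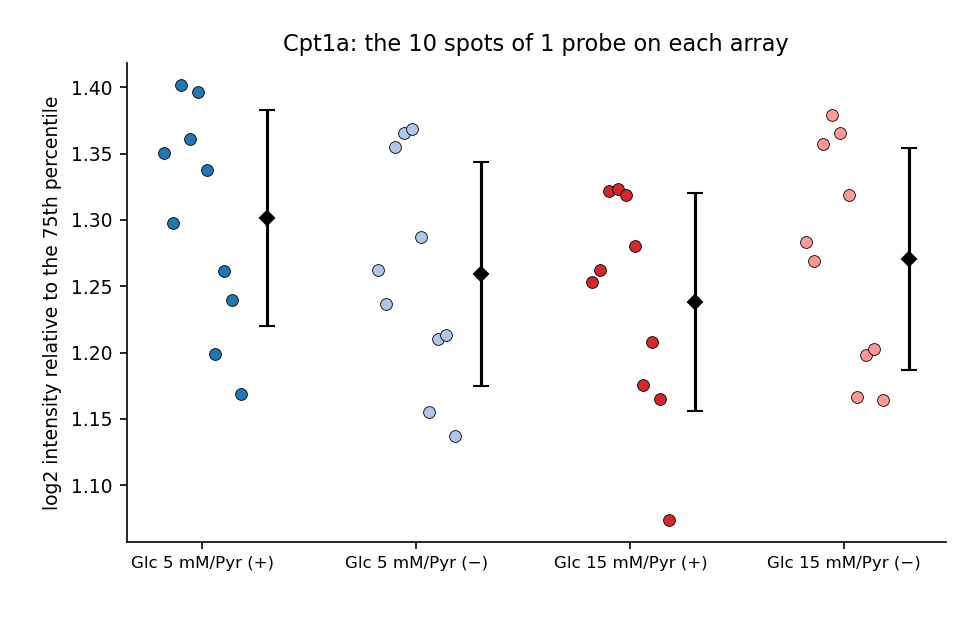
Log2 intensity of the 10 spots of Cpt1a (1) on each array, relative to the 75th percentile of that array, in the order of their place on the array. Diamonds and bars give the mean and SD over the 10 spots, which lie between 1.24 and 1.30 on all 4 arrays.

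Acadl, chr1:66877673-66877732, had 3342 with and 3028 without pyruvate at 5 mM glucose, and 2690 with and 2949 without it at 15 mM glucose. Its difference was -0.10 at 5 mM and 0.10 at 15 mM glucose, both within the spread of 0.11. The pyruvate differences of the oxidation enzymes thus stayed between -0.13 and 0.10.

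Angptl4 differed in direction between the glucose concentrations. Its probe lies at chr17:33911880-33911939 and begins as follows.

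Angptl4: atggtgctgttgtaggtgctgtggatgcac

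The intensity was 1992 with and 1576 without pyruvate at 5 mM glucose, and 1711 with and 1918 without it at 15 mM glucose. The array without pyruvate was the lower one at 5 mM and the higher one at 15 mM glucose. The differences were -0.30 and 0.13. In its tertile of signal the central 95% of probes ran from -0.28 to 0.30 at 5 mM glucose, so Angptl4 lay just outside, and from -0.70 to 0.48 at 15 mM glucose, where it lay inside. Without pyruvate, Angptl4 was 0.38 higher at 15 than at 5 mM glucose, the widest glucose difference of any member averaged over its probes. With pyruvate this difference was -0.06.

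**Figure D3:**
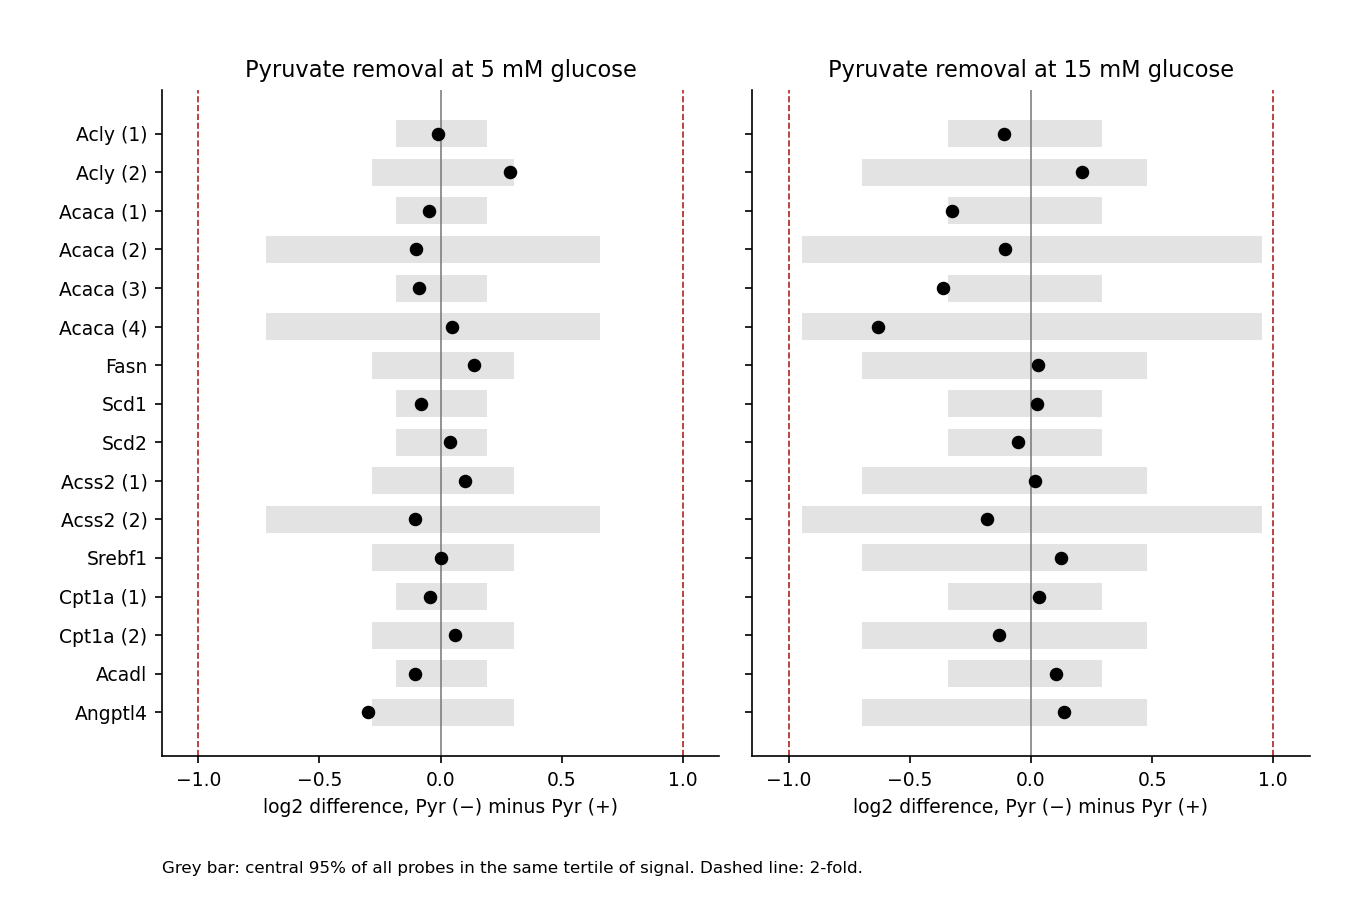
Log2 difference Pyr (−) minus Pyr (+) of each probe at 5 mM (left) and 15 mM glucose (right). Grey bars give the central 95% of all probes in the same tertile of signal and dashed lines mark 2-fold. Angptl4 lies outside its bar on the left, Acaca (3) on the right, and no probe reaches 2-fold.

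Counted together, 0 of the 10 members changed by 2-fold in any of the 4 comparisons. Of all probes with a signal well above background in at least 1 of the compared groups, 3.30% changed by 2-fold with pyruvate removal at 5 mM glucose and 5.47% at 15 mM glucose. For high glucose it was 3.25% with pyruvate and 5.83% without. Members are bright compared with much of the array, and most probes past 2-fold were dim. In the 2 brighter tertiles of signal, no probe passed 2-fold with pyruvate removal at 5 mM glucose, and 1.33% of the middle and 0.152% of the brightest tertile did at 15 mM glucose. The 0 of 16 member probes is near that background.

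At 1.5-fold, 1 member probe passed, the dim Acaca (4) with pyruvate removal at 15 mM glucose, where 10.8% of all probes did. The share of all probes was 6.24% with pyruvate removal at 5 mM glucose, 6.82% for high glucose with pyruvate and 11.6% for high glucose without, with 0 member probes in each. The median over the 10 genes was 0.00 and 0.03 for pyruvate removal at 5 and 15 mM glucose. For high glucose it was -0.01 with and 0.00 without pyruvate. Over all probes tested these medians were -0.02, 0.03, -0.03 and 0.03.

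The glucose differences of the members were of the same size. With pyruvate, they ran from -0.15 for Acadl to 0.24 for the dim Acaca (4), and 13 of 16 probes lay within 0.15 of 0. Without pyruvate, they ran from -0.44 for Acaca (4) to 0.38 for Angptl4, with -0.29 for Acaca (1) and -0.33 for Acaca (3). The comparisons of glucose without pyruvate and of pyruvate at 15 mM glucose share the [Glc 15 mM/Pyr (−)] array, in which Acaca was lowest, so these Acaca values are 1 observation.

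Over all 4 arrays, pyruvate and glucose were fitted as additive terms with limma, which left 1 residual degree of freedom. It called 0 of 31309 probes for either factor after Benjamini-Hochberg adjustment, and 1086 for pyruvate and 1495 for glucose had an unadjusted p below 0.05. Among the 16 member probes, 0 had an unadjusted p below 0.05. With an intensity trend in the limma fit 1 did, Acaca (3) for pyruvate, with an unadjusted p of 0.0487 and an adjusted p of 0.991. The adjusted p values of limma for pyruvate ran from 0.987 to 1.000 among the members. The limma estimates have intervals for a change that both glucose concentrations would share. Their standard errors lean on a variance pooled over all probes, bright and dim alike. The dim Acaca (2) had the lowest of the members, 0.089, against 0.094 for the bright Scd2. Pyruvate differences over the dimmest tertile had an SD of 0.34 at 5 mM and 0.44 at 15 mM glucose. For dim probes the intervals are therefore no firm limit on a change. For pyruvate, the 95% interval lay within 2-fold in both directions for 15 of 16 probes, the exception being Acaca (4). For glucose it did so for all 16. The estimate for Cpt1a (1) was -0.01 with an interval of -0.33 to 0.32, and for Scd2 it was -0.01 with an interval of -0.33 to 0.32.

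The pathway around the members was followed in 99 further genes in 4 lists. Among 23 other genes of fatty acid synthesis, 21 were measured, and 0 passed 2-fold in any comparison. Their median was -0.02 for pyruvate removal at 5 mM and 0.00 at 15 mM glucose, with 9 and 11 genes higher. The list's widest difference was that of Elovl3, which encodes an elongase of very long chains. Elovl3 was dim, with 21.1 with and 31.5 without pyruvate at 5 mM glucose, and 20.7 with and 35.2 without it at 15 mM glucose. Both arrays without pyruvate were above both arrays with it, and the differences were 0.62 and 0.74. These lie within the central 95% of the dimmest tertile. Under the normexp background correction the Elovl3 differences were 0.29 and 0.01. Its added 50 exceeds these intensities and shrinks such differences, but its share of the drop was not tested.

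All 25 other genes of oxidation were measured, and 0 passed 2-fold or 1.5-fold in any comparison. With pyruvate removal, the median was 0.00 at 5 mM and 0.03 at 15 mM glucose. For high glucose without pyruvate, 21 of 25 genes were higher, with a median of 0.11, against 0.03 over all probes and 0.08 over the brightest tertile, in which 19 of the 32 probes of this list lie. On spike-in scaling this count turned to 7 of 25 higher with a median of -0.05. The widest difference was that of Mlycd, the malonyl-CoA decarboxylase, which was 0.27 higher at 15 mM glucose with pyruvate and 0.30 higher without.

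Of 21 regulators, which include the SREBP, ChREBP, PPAR and AMPK genes, 0 passed 2-fold. Their medians for pyruvate removal were -0.01 and 0.01. Mlxipl, which encodes the glucose-responsive factor ChREBP, had the widest difference, with a mean over 2 probes of -0.54 for high glucose without pyruvate, where the probes gave -0.56 and -0.53. With pyruvate the mean was -0.20, but the probes disagreed. The bright one, with intensities of 4448 to 7803, differed by -0.42, outside the central 95% of the brightest tertile, -0.20 to 0.25, and the dim one by 0.02. Of 30 genes for lipoprotein lipase, lipid droplets and PPAR targets, 27 were measured in at least 1 group and Pdk4 alone passed 2-fold.

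Pdk4 encodes a kinase that shuts the pyruvate dehydrogenase complex and is, like Angptl4, a known PPAR target. Its intensity was 12.7 with and 75.6 without pyruvate at 5 mM glucose, and 11.9 with and 77.1 without it at 15 mM glucose. It was 6.11-fold higher without pyruvate at 5 mM glucose. With 15 mM glucose the rise was 6.37-fold, treated as a bound because the signal with pyruvate was not well above background. It was taken from that unreliable signal itself, so it is not a firm lower limit. Pdk4 was dim throughout, and both folds are those of the processed signal. With the normexp correction its log2 difference was 0.93 at 5 mM and 0.50 at 15 mM glucose, both under 2-fold. The 50 added by that correction exceeds the Pdk4 signal with pyruvate and by itself shrinks its folds. How much of the drop comes from it, and how much from the background estimate, was not tested. The size of the Pdk4 folds thus depends on the background correction. Angptl4, with -0.30 and 0.13, did not share its direction at 5 mM glucose. The list was chosen with earlier results of these arrays known.

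**Figure D4:**
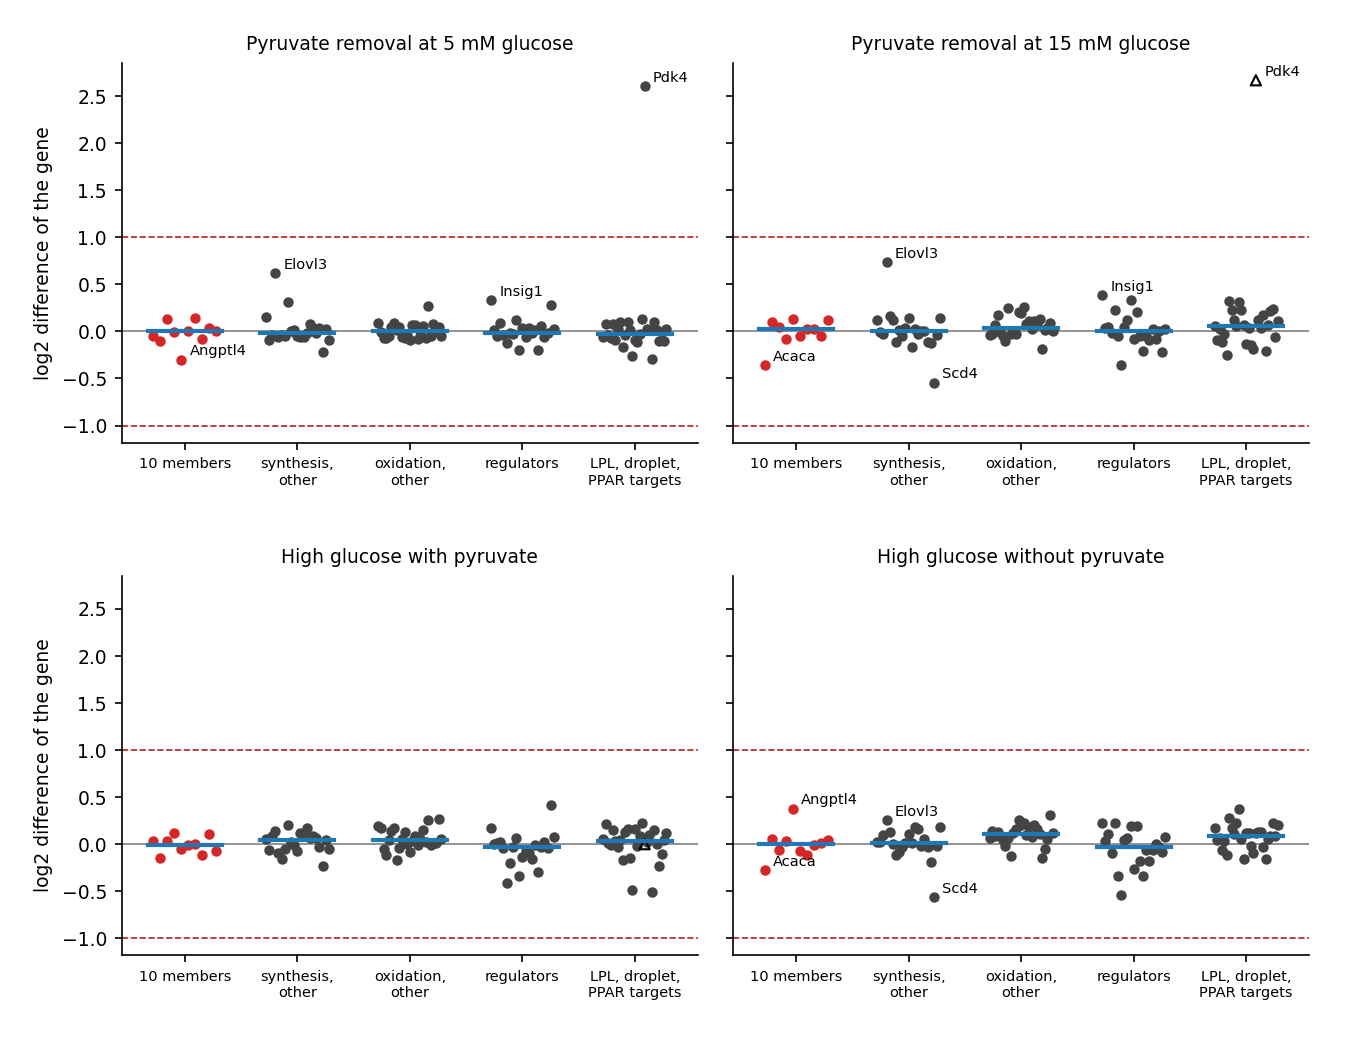
Log2 difference of each gene in the 4 comparisons, for the 10 members (red) and the 4 lists of pathway genes (grey). Points are means over the probes of a gene, the open triangles are bounds, blue bars are medians of measured genes and dashed lines mark 2-fold. All members lie between -0.36 and 0.38, and Pdk4 is the only gene past 2-fold.

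Promoters of 7 of the 10 members, 9 in all, were found in RefSeq on GRCm38.p6, as 250 bases before to 50 after each start. Scd1, Scd2 and Angptl4 had no promoter in the set used, so they were not searched for any motif. The 6 motifs below were searched on both strands. The SREBP element TCACCCCAC was in 0 of the 7 members, against 0.551% of all 32851 promoters. The E-box CACGTG, which reads the same on both strands, was in 0, against 7.15%, and the FoxO element GTAAACA in 0, against 3.65%. The CAAT box CCAAT was in 6 of the 9 member promoters, from 5 members, against 37.4% of all promoters. The GC box GGGCGG was in 6 of the 9 as well, also from 5 members, against 35.7%. The PPAR half-site AGGTCA was in 2 of the 9, from Acly and Cpt1a, against 16.3%. Both matches are shown in capitals with the surrounding bases, on the strand of the gene.

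Acly, chr11:100528023-100528052, minus strand: cccatcagccccAGGTCAggcctgagggcg
Cpt1a, chr19:3323195-3323224, plus strand: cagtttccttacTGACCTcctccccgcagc

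In Cpt1a the match is on the opposite strand. A match of 6 bases is a description of the sequence, and neither gene was past 1.5-fold in any comparison.

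The cells were checked by marker genes. All 13 Schwann cell markers were well above background on all 4 arrays. The brightest were Ncam1 with 22234 to 29376, Ngfr with 14823 to 18038 and Egr2 with 10976 to 17165, while Erbb3 had only 15.6 to 22.2. Of 4 adipocyte markers, Adipoq and Plin1 were above background on all 4 arrays, at 13.7 to 25.6, and the summed signal of the 4 was 38.8 to 54.7. Well above background on all 4 arrays were also 3 of 4 fibroblast, 4 of 4 macrophage, 2 of 3 neuron and 2 of 3 endothelial markers. In [Glc 15 mM/Pyr (−)], the array in which Acaca was lowest, the summed signal of the macrophage markers was highest, at 2132 against 1323 to 1652 on the others. Cd68 carried this with 1817, while Ptprc with 23.4 and Aif1 with 259 were at their lowest there. The summed signal of the Schwann cell markers was lowest on the same array, at 75824 against 85043 to 94733, and so was that of the neuron markers, at 5936 against 6404 to 9675. These sums are intensities before scaling, and their part in the differences above was not tested.

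Scaling by 1 constant per array shifts the differences of all probes between arrays alike. Other scalings tried, quantile normalization and cyclic loess, can shift probes unequally. The 75th percentile of the mouse probes fell from 1788 in [Glc 5 mM/Pyr (+)] to 1740, 1597 and 1632 in the other 3 groups. Scaling to the 10 spike-in probes instead moved the median of all probes by -0.20 and -0.04 for pyruvate removal at 5 and 15 mM glucose, and by -0.31 and -0.16 for high glucose with and without pyruvate. The small positive differences of the members at 5 mM glucose became negative on that scale, apart from Acly (2) at 0.09. The low Acaca values at 15 mM glucose were between -0.33 and -0.37 for Acaca (1) and between -0.36 and -0.41 for Acaca (3) under the 6 alternatives that can move the value of a single probe. Angptl4 stayed between -0.50 and -0.29 at 5 mM and between 0.09 and 0.13 at 15 mM glucose.

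**Figure D5:**
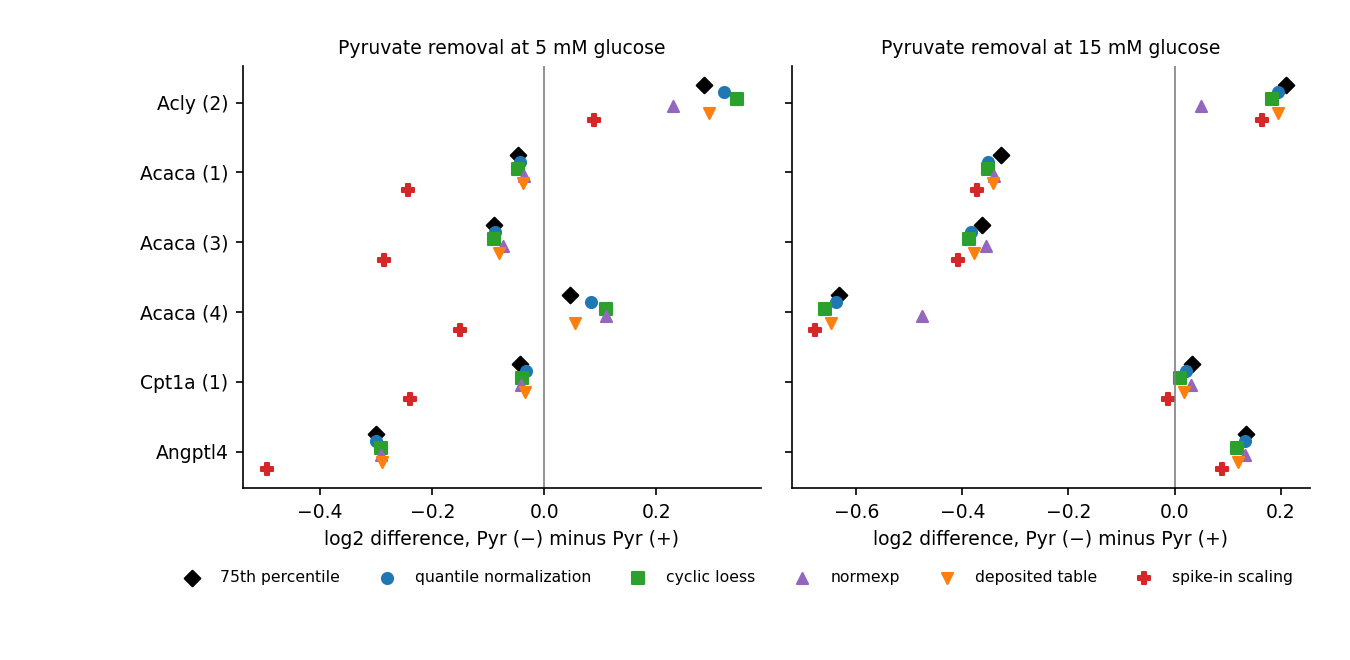
Log2 difference Pyr (−) minus Pyr (+) of 6 member probes under 6 ways of processing, at 5 mM (left) and 15 mM glucose (right). The red crosses of spike-in scaling lie lower by 0.20 on the left and 0.04 on the right, and the normexp triangle of the dim Acaca (4) lies at -0.48 on the right.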

How the data were processed

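IMS32 RNA from 1 sample per group was hybridized to 4 one-colour Agilent whole mouse genome arrays. The authors deposited scanner output of Agilent Feature Extraction 11.5.1.1 (submitters' processing notes), whose processed signal is a background-corrected intensity with no scaling between arrays. The deposited value table is a ratio of that intensity to 1 constant per array. The settings of GeneSpring GX are not given in the sources used here.

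Here control spots and spots marked as outliers were dropped. Spots of a probe were averaged as log2 intensity minus the 75th percentile of the array. The filter kept any probe that was well above background on 1 or more arrays. Where a probe was dim in 1 of 2 groups, its own signal or, if higher, the lowest signal well above background on that array gave a bound. A gene is the mean of its probes. Differences of single arrays have no test, and 2-fold counted as changed. The additive fit used limma 3.58.1 in R 4.3.3 with adjustment at 0.05. Other steps used Python 3.11.15, numpy 2.4.6 and pandas 2.3.3. The 2-fold count and the additive fit were tested on simulated data. Members, lists and motifs were chosen with earlier results of these data known. Named outside the members are the genes past 2-fold and the gene with the widest difference of each list. Insig1, Ppara, Usf1, Cd68, Ptprc and Aif1 were named after their values were seen. The genes most like a member were to be named only for members past 2-fold, of which there were 0. A comparison of the Scd1 and Scd2 proteins was not run.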

Additional observations from a re-analysis of the deposited data

Results flagged for a closer look

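Angptl4 had pyruvate differences of opposite sign at the 2 glucose concentrations, -0.30 at 5 mM and 0.13 at 15 mM, both beyond the spread of 0.11 between spots. The second minus the first was 0.43 on the log2 scale. Each value rests on 1 array per group, and the difference was not tested. In the same tertile of signal, the central 95% of probes ran from -0.70 to 0.50 on this measure, which includes Angptl4.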

How the results depend on the processing

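Of 134 values of the main results under the alternatives, 125 stayed within the spread of 0.11 (for counts, within 1.5 times). Some of these could not move. All member probes pass every filter tried, and the fold threshold does not enter a median. Spike-in scaling moved the median of the members to -0.19 for pyruvate removal at 5 mM glucose, and to -0.31 and -0.16 for high glucose with and without pyruvate, as it moved all probes. The number of genes of the other lists past the threshold, 1 for pyruvate removal at each glucose concentration, was 0 with normexp and 0 with probes well above background on all 4 arrays, and 2 at 1.5-fold. The members past 2-fold stayed at 0 in every setting tried, and 0 passed at 1.5-fold as means of their probes. A reversal was counted only for values past 2-fold, which Pdk4 alone had, and 0 were found. Smaller differences of members did change sign, as given above for spike-in scaling. Only 6 alternatives can change the difference of a single probe, and of the 384 such values 57 moved by more than the spread, 48 of them under spike-in scaling. Without the 2 Acaca probes placed on chromosome 12, chosen after seeing the data, Acaca was -0.48 at 15 mM glucose in place of -0.36. The cause of these shifts was not tested. No paired analysis was possible because each group has 1 array. Leaving out an array leaves the additive fit no residual degrees of freedom. Dim probes limit what can be seen of Acaca (2), Acaca (4), Acss2 (2), Elovl3 and Pdk4.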

Other observations

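Insig1, which encodes the protein that holds SREBP in the endoplasmic reticulum and is itself an SREBP target, was chosen from the regulators after its values were seen. Its intensity was 458 with and 562 without pyruvate at 5 mM glucose, and 460 with and 614 without it at 15 mM glucose. Both arrays without pyruvate were above both arrays with it, with differences of 0.33 and 0.39. At 5 mM glucose this lay outside the central 95% of the middle tertile of signal, -0.28 to 0.30, and at 15 mM glucose inside it. Srebf1 differed by 0.00 and 0.12 in the same comparisons.

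The 3 probes of Ppara, a receptor that drives oxidation genes, had pyruvate differences of 0.23, 0.70 and 0.07 at 15 mM glucose and, in the same order, 0.08, -0.50 and -0.16 at 5 mM glucose, where they disagreed in sign. The middle one of these was dim, with 89.1, 61.3, 46.8 and 77.8. Usf1, a factor that binds E-boxes, had a pyruvate difference of 0.29 in low and -0.22 in high glucose. Its probe was dim too, with 115, 137, 138 and 121. The values of Usf1 and of the dim Ppara probe lie within the central 95% of the dimmest tertile. That range was -0.72 to 0.66 at 5 mM and -0.94 to 0.95 at 15 mM glucose.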
